A study of Mus musculus with 6 samples.

Results

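H3K9me3, the trimethylated lysine 9 of histone H3, was examined at the genes of the estrogen receptors and their relatives in endothelial progenitor cells (EPCs) of mouse bone marrow. The members were chosen by gene name and not by their values, though earlier results of these data were known. They were the receptors Esr1, Esr2, Gper1 and Pgr, the estrogen target Greb1, and the estrogen-related receptors Esrra, Esrrb and Esrrg. In the authors' annotation these 8 genes held 30 of the 58511 regions, and 21063 genes had at least 1 region. The mark was mapped by CUT&Tag, in which an antibody tethers a transposase to chromatin which then cuts and tags the DNA around it. There were 3 groups with 2 libraries each, all from C57BL/6J mice of 8 weeks. M-EPC came from males, F-EPC from females with ovaries, and OVX-EPC from females ovariectomized by the supplier at about 35 days of age. All cells were depleted of lineage-positive cells, sorted on magnetic beads for Sca-1 and CD31, and expanded in EGM-2 endothelial medium.

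Estrogen acts through nuclear receptors that bind DNA as dimers, ERα (Esr1) and ERβ (Esr2), and through the membrane receptor encoded by Gper1. ERα switches on targets such as the progesterone receptor (Pgr) and the coactivator Greb1. The estrogen-related receptors share sequence with ERα but bind no estrogen, and Esrra in particular controls genes of mitochondrial energy metabolism. H3K9me3 is a mark of heterochromatin and silenced genes, and it is dense over repeats.

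The 5 regions below are the 3 member regions in the top 5% of all regions by level, and both regions of Pgr, the 1 member gene called. Each is shown as its central 300 bases on the + strand of mm10, with CG dinucleotides, the sites of DNA methylation, in capitals. The Esr1 regions lay upstream of the gene, the Esrra region covered its promoter, and the Pgr regions lay far upstream within repeats. Esrra held 22 CG in these bases, against 1 to 3 in the other 4 sequences.
Esr1, 10.5 kb upstream, chr10:4600983-4601282: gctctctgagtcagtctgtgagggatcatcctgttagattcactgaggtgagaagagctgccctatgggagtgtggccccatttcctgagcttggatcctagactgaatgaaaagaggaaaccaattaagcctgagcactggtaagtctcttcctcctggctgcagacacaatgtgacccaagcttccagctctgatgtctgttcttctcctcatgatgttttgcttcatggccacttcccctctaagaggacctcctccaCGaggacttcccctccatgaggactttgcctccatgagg
Esr1, 9.2 kb upstream, chr10:4602283-4602582: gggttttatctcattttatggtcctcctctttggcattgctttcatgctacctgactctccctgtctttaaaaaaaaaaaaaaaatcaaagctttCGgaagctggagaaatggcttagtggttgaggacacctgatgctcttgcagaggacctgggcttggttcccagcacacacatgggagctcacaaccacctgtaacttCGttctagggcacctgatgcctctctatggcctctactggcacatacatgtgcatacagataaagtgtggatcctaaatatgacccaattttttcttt
Esrra promoter, chr19:6921872-6922171: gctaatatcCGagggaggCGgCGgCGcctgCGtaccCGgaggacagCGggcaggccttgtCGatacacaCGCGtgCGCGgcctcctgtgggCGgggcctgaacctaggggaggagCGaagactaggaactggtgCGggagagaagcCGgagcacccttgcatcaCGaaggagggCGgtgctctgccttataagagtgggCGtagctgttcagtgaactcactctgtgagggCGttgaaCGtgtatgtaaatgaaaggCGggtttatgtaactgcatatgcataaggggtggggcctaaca
Pgr, 106 kb upstream, chr9:8793423-8793722: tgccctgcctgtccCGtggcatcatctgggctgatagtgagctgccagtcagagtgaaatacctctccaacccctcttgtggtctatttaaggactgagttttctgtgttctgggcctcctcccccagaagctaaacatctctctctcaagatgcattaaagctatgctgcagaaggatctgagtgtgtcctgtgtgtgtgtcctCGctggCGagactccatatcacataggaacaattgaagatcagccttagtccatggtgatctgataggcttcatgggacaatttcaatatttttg
Pgr, 104 kb upstream, chr9:8795784-8796083: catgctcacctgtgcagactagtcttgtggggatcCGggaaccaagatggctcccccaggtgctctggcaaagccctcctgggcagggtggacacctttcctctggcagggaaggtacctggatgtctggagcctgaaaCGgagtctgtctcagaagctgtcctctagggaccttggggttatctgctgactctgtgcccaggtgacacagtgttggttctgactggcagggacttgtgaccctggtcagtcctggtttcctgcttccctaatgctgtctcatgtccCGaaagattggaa

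Binding motifs were searched on both strands of all regions of 400 bp. The half-site AGGTCA, shared by many nuclear receptors, was present in 10 of the 30 member regions (33.3%) and in 23.7% of 58029 regions overall. The palindrome GGTCANNNTGACC, the element that ERα dimers bind, was in 0 of the 30 and in 0.0775% overall. The element of the estrogen-related receptors, TCAAGGTCA, which contains the half-site, was in 3 of the 30 (10%) and in 0.820% overall. Those 3 matches are given with 10 bases on either side and the motif in capitals, all on the + strand. They lay in weak regions of Esrrg, Esr1 and Esrrb, none of which had more than 10 reads in a library.
Esrrg, intron 2, chr1:187620616-187620644: ttgcccagaaTCAAGGTCAagcagctgtt
Esr1, 24.5 kb upstream, chr10:4586864-4586892: ctggggtgacTCAAGGTCAtggttcctga
Esrrb, intron 1, chr12:86446852-86446880: gcacttgagtTCAAGGTCAgctgggttac

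The libraries held 288353 to 573821 reads in all regions. In the text order of chromosome names, the reads of F-EPC replicate 1 ended at chr16:30556738-30557137 and those of replicate 2 at chr3:110808454-110808853. F-EPC was therefore compared only in the 26999 regions up to the first of these positions, called covered regions here, which included 26 of the 30 member regions. Esr1, Esr2, Greb1, Esrrb and Esrrg could be compared in all 3 groups. Gper1 and Pgr had no F-EPC reads, and Esrra had them in replicate 2 alone. M-EPC and OVX-EPC differ in both sex and ovariectomy, which cannot be told apart for these genes. The median covered region held 5 to 8 reads per library. In regions of the endothelial markers Pecam1, Cdh5, Kdr, Tek and Vwf, the M-EPC libraries held 161 and 206 reads and the OVX-EPC libraries 206 and 193, while Ly6a (Sca-1) had no region. Of 8 markers of other cells, 5 had regions, holding 127 and 132 reads for M-EPC and 85 and 108 for OVX-EPC. H3K9me3 is no measure of expression, so these reads do not show which cells were present. Their part in the results was not tested. The X chromosome took 1.20% of reads in both M-EPC libraries and 2.40% to 2.43% in OVX-EPC, and the Y chromosome took 0.117% to 0.133% and 0.116% to 0.127%. The Y shares overlapped although OVX-EPC came from females, so they do not separate the sexes, and the source of these reads was not tested. The F-EPC libraries ended before both chromosomes. Fewer marked cells and less mark per cell cannot be told apart in such bulk samples.

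Most of the member regions were weak. Their median level, the mean of the M-EPC and OVX-EPC libraries, was 3.96 normalized reads per region, compared with 6.71 over all regions. Of the 30, 24 lay under the median of all regions and 3 in the top 5%, namely the Esrra promoter and both Esr1 regions shown above. In 19 member regions no library reached 10 reads. By annotation, 15 (50%) were in introns, 10 (33.3%) in distal intergenic sequence, 3 (10%) in exons and 2 (6.67%) in promoters. Over all regions these shares were 21.1%, 54.4%, 2.27% and 20.7%. Repeats masked a median of 14.0% of a member region and 21.25% of all regions, while the median GC content was 48.5% in both.

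**Figure D1:**
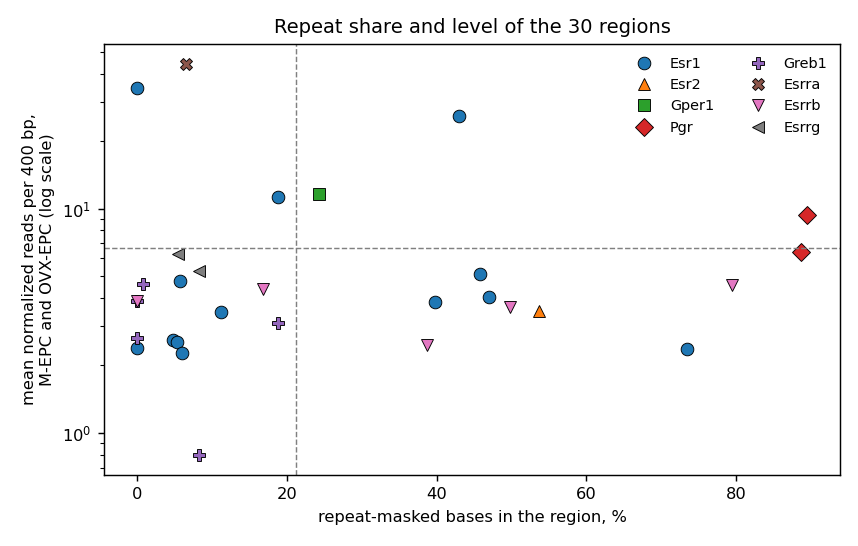
Each point is 1 of the 30 member regions, with the percent of repeat-masked bases on the x axis and the mean of the M-EPC and OVX-EPC libraries, in normalized reads per region on a log scale, on the y axis. Dashed lines give the medians of all 58511 regions (21.25% and 6.71). The strongest 2 points, Esrra and Esr1, had few masked bases, and both Pgr regions sat at 88.75% and 89.5%.

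Levels of the genes were set side by side per kilobase of region, on 1 scale for all 6 libraries. In M-EPC, Esrra stood first with 139 normalized reads per kb. Gper1 (27.4) and Esr1 (23.5) followed, and did not differ beyond their spread. Pgr (10.3), Esrrb (10.1), Esrrg (9.65), Greb1 (9.23) and Esr2 (8.43) formed a group whose SD ranges overlapped. In OVX-EPC, Esrra was again first with 83.1 per kb, then Gper1 (31.0) and Pgr (29.1), then Esrrg (19.3), Esr1 (16.9), Esr2 (9.12), Esrrb (8.84) and Greb1 (5.77). There, neighbours from Gper1 to Esr1 overlapped within their SD, as did those from Esr2 to Greb1, while Esrra and Gper1, and Esr1 and Esr2, did not. In F-EPC, where 5 genes were covered, the order was Esr1 (19.7), Esrrg (10.2), Esrrb (9.70), Esr2 (7.57) and Greb1 (6.98), and from Esrrg on the SD ranges of neighbours overlapped.

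**Figure D2:**
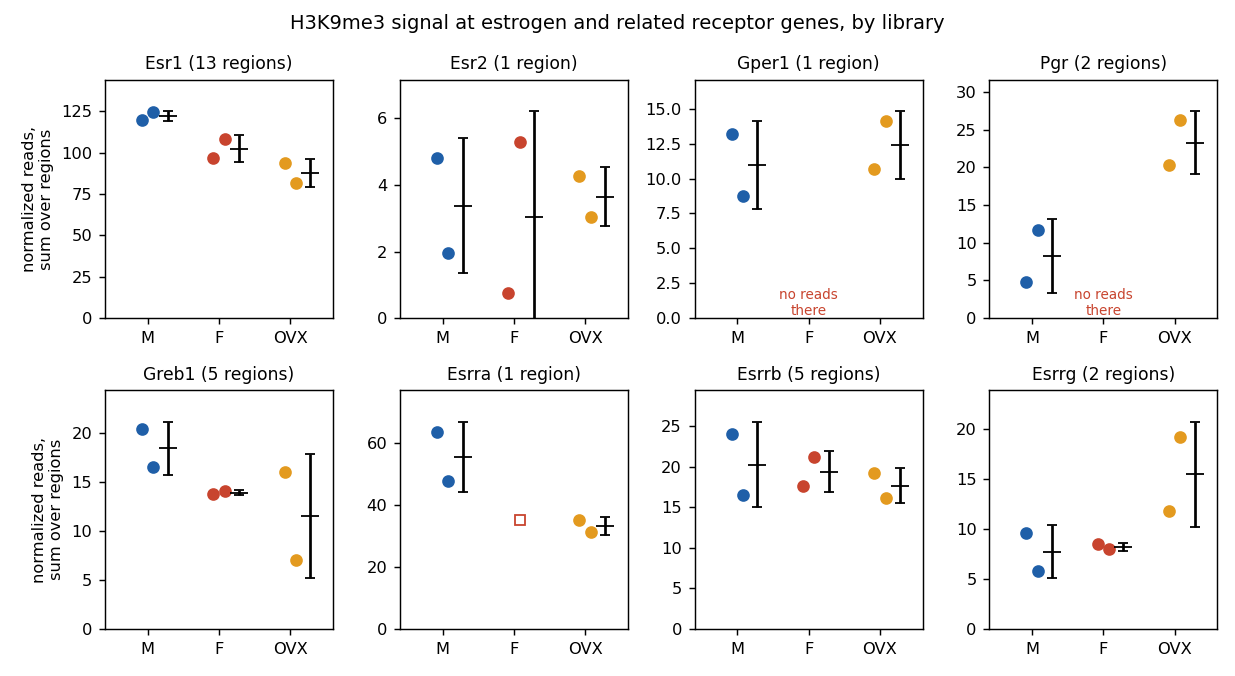
Normalized reads summed over the regions of each gene, on the scale common to the 6 libraries, for M-EPC, F-EPC and OVX-EPC. Points are libraries, bars are the mean with 1 SD (n = 2), and the open square is the 1 F-EPC library that reaches Esrra. Esr1 lay highest in M-EPC and lowest in OVX-EPC, and Pgr lay higher in both OVX-EPC libraries than in either M-EPC library.

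Esr1, on chr10:4611593-5005614 (+ strand), held the most reads of the members, with 13 regions. Summed over them, the M-EPC libraries had 100 and 128 reads, the F-EPC libraries 126 and 123, and the OVX-EPC libraries 88 and 81. After normalization the means were 122 ± 3.07 for M-EPC, 103 ± 8.33 for F-EPC and 87.8 ± 8.60 for OVX-EPC (SD, n = 2). The 3 groups did not overlap on this scale. By limma over all genes, the change of F-EPC from M-EPC was -0.25 ± 0.179 (log2 of sum + 1, SE), with an adjusted p of 0.359 and a 95% interval of -0.61 to 0.11. That of OVX-EPC from M-EPC was -0.43 ± 0.206 (limma, adjusted p = 0.200, 95% interval -0.83 to -0.02). OVX-EPC and F-EPC differed by -0.21 ± 0.178 (limma, adjusted p = 0.875, 95% interval -0.56 to 0.13). No Esr1 comparison passed the threshold of 0.05. The change of F-EPC from M-EPC was -0.13 with TMM factors and -0.09 with edgeR or DESeq2, and that of OVX-EPC from M-EPC was -0.27 with TMM factors. The change between OVX-EPC and F-EPC ranged from -0.31 to -0.12 with 1 library left out. The median change of all genes was -0.20 for F-EPC and -0.13 for OVX-EPC against M-EPC, and 0.02 between OVX-EPC and F-EPC.

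The Esr1 signal lay in front of the gene. Its 6 distal regions, 9.2 to 37.8 kb upstream of the start, held 67.0% to 91.4% of the Esr1 reads of a library, and the 7 intronic regions held the rest. The region 10.5 kb upstream (chr10:4600933-4601332) had 36 reads in each M-EPC library, 44 in each F-EPC library, and 24 and 34 in OVX-EPC. It lay at the 97.6th percentile of level, had no repeat-masked base, and overlapped between M-EPC and F-EPC after normalization. The region 9.2 kb upstream (chr10:4602233-4602632, 43% masked) had 26 and 36 reads for M-EPC, 21 and 19 for F-EPC, and 18 and 18 for OVX-EPC. Both M-EPC libraries were above the other 4 here. Another distal region 13 kb upstream (chr10:4598357-4598756) had 10 and 16 reads for M-EPC, 15 and 25 for F-EPC, and 6 and 11 for OVX-EPC. The other 3 distal regions had 1 to 9 reads per library. They lay 37.8, 25.2 and 24.5 kb from the start of Esr1, but nearer to that of Gm3266 (3.6, 16.2 and 16.8 kb). The 7 intronic regions together had 20 and 20 reads for M-EPC, 32 and 17 for F-EPC and 29 and 7 for OVX-EPC, and the groups overlapped.

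**Figure D3:**
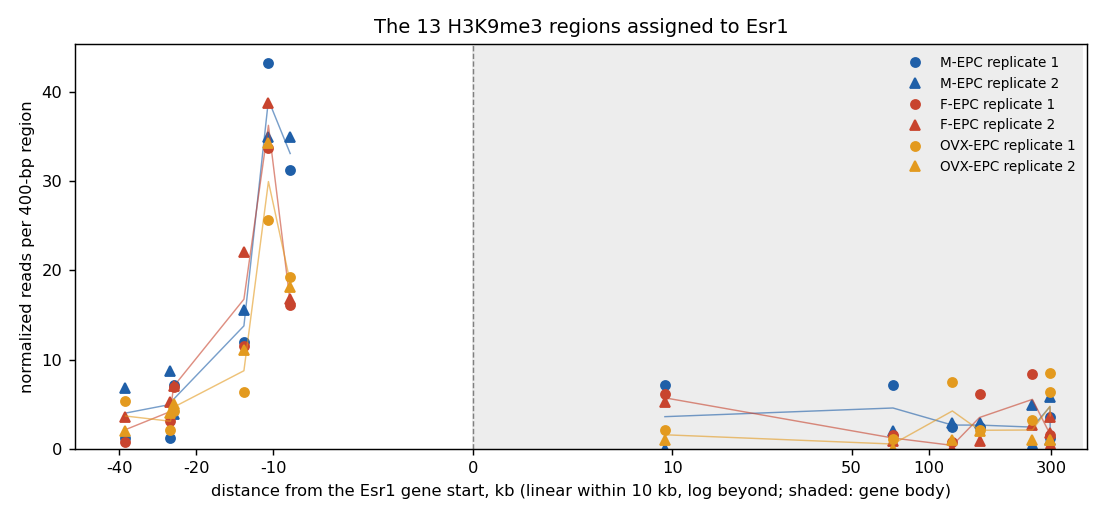
Normalized reads in each of the 13 regions of Esr1 (y axis) against distance from the gene start in kb (x axis, linear within 10 kb and log beyond, gene body shaded). Symbols are the 6 libraries and lines join the group means on each side of the start. The peak at -10.5 kb reached 25.6 to 43.2, and at -9.2 kb both M-EPC libraries (lowest 31.2) lay above F-EPC (16.1 and 16.7) and OVX-EPC (18.2 and 19.2).

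Among the 3 member regions tested between F-EPC and M-EPC, the region 9.2 kb upstream of Esr1 had the largest change. On the scale of that comparison it had 34.5 ± 2.82 normalized reads for M-EPC and 17.1 ± 0.536 for F-EPC (SD, n = 2), a log2 change of -0.97 ± 0.304 with a 95% interval of -1.59 to -0.34. It had an adjusted p of 0.0880 by limma and did not pass. Its neighbour 10.5 kb upstream changed by -0.10 ± 0.264 (limma, adjusted p = 0.852) and the region 13 kb upstream by 0.21 ± 0.375 (limma, adjusted p = 0.768). Against M-EPC, OVX-EPC had -0.74 ± 0.306 in the region 9.2 kb upstream (limma, adjusted p = 0.244), -0.33 ± 0.284 at 10.5 kb (adjusted p = 0.573) and -0.59 ± 0.449 at 13 kb (adjusted p = 0.518). These comparisons share the M-EPC libraries. Between OVX-EPC and F-EPC the region 13 kb upstream differed by -0.84 ± 0.398 (limma, unadjusted p = 0.0405, adjusted p = 0.783), and the region 9.2 kb upstream by 0.18 ± 0.328 (limma, adjusted p = 0.965, 95% interval -0.48 to 0.85).

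Few member regions had enough reads for a test of single regions. Of F-EPC against M-EPC, 3 of the 26 covered member regions passed the filter of 10 in at least 2 libraries, all of Esr1, and 0 of them had an adjusted p under 0.05 by limma, compared with 1.79% of all 8139 regions tested. Of these, 1 had an unadjusted p under 0.05, against 22.8% overall. Of OVX-EPC against M-EPC, 6 of 30 passed the filter and 0 were called by limma, compared with 0.449% of 16931, and 2 had an unadjusted p under 0.05, against 16.1%. Of OVX-EPC against F-EPC, 3 passed the filter and 0 were called by limma, compared with 0.0127% of 7897, and 1 had an unadjusted p under 0.05, against 6.22%. With edgeR and with DESeq2 on the recovered reads the calls were also 0 in each comparison. Fitted without a filter, all 26 or 30 member regions had limma adjusted p-values over the threshold. At an unadjusted limma p under 0.05 this fit added the intragenic promoter region of Greb1 to the first comparison. To the second it added the Pgr region 106 kb upstream. The share of all regions under 0.05 in this fit was not taken, so these additions are a description.

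Esr2, on chr12:76120419-76177259 (- strand), had a single distal region 12.2 kb upstream (chr12:76189210-76189609). It held 4 and 2 reads for M-EPC, 1 and 6 for F-EPC and 4 and 3 for OVX-EPC. All 3 groups overlapped, and the region passed the filter in no comparison. A difference in H3K9me3 at Esr2 was not detectable at this depth.

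Gper1, on chr5:139423151-139427800 (+ strand), had 1 region 5.9 kb upstream (chr5:139417014-139417413), within intron 2 of 4 of the neighbouring gene 3110082I17Rik. M-EPC had 11 and 9 reads there and OVX-EPC 10 and 14, so the groups overlapped. The change was 0.22 ± 0.487 (log2, limma over gene sums, adjusted p = 0.834, 95% interval -0.74 to 1.18).

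Pgr, on chr9:8899833-8968611 (+ strand), had 2 regions, both distal and more than 100 kb upstream. The region chr9:8793373-8793772 had 0 and 4 reads for M-EPC and 9 and 12 for OVX-EPC. The region chr9:8795734-8796133 had 4 and 8 reads for M-EPC and 10 and 14 for OVX-EPC. In each, both OVX-EPC libraries were above both M-EPC libraries. Repeats masked 88.75% and 89.5% of their bases, and reads of low mapping quality had been discarded. The nearest other gene start, that of Gm32014, was 52.6 and 54.9 kb away.

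Summed over both regions, Pgr rose in OVX-EPC from 7.57 ± 4.63 to 21.9 ± 3.79 normalized reads (SD, n = 2). The log2 change was 1.52 ± 0.440 (95% interval 0.65 to 2.39, limma adjusted p = 0.0234). It was the 1 called gene of 7 members tested, while 5.36% of all 13347 genes were called and 3.11% were called as higher. Pgr lay at the 99.0th percentile of change over the genes tested. Its sum would not have passed the filter on M-EPC alone, so it was tested through the group where it was high. The call was lost without M-EPC replicate 1 (0.94, limma adjusted p = 0.290), without OVX-EPC replicate 1 (1.69, adjusted p = 0.115) and without OVX-EPC replicate 2 (1.35, adjusted p = 0.301). Neither region passed alone: the nearer one, which reached the filter through OVX-EPC alone, had 0.93 ± 0.529 (limma, adjusted p = 0.377), and the farther one, fitted without a filter, by 2.38 (limma, adjusted p = 0.195).

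Greb1, on chr12:16670615-16800886 (- strand), had 5 regions along the gene, with 3 in exons, 1 in intron 1 and 1 annotated as promoter, 2.1 kb from an internal start. In total M-EPC had 17 and 17 reads, F-EPC 18 and 16, and OVX-EPC 15 and 7. The promoter region (chr12:16688543-16688942) had 6 and 4 reads for M-EPC, 1 and 0 for F-EPC and 4 and 3 for OVX-EPC. Both F-EPC libraries were the lowest there. Its change in F-EPC, fitted without a filter, was -2.29 ± 1.06 (log2, limma, adjusted p = 0.343). The exonic regions together had 5 and 11 reads for M-EPC, 15 and 15 for F-EPC and 8 and 4 for OVX-EPC. The one with the most reads (chr12:16696468-16696867) had 2 and 7, 5 and 6, and 4 and 2. For the whole gene the change was -0.37 ± 0.369 in F-EPC (limma, adjusted p = 0.526) and -0.68 ± 0.426 in OVX-EPC (limma, adjusted p = 0.348) against M-EPC, and -0.35 ± 0.432 between OVX-EPC and F-EPC (limma, adjusted p = 0.938). The OVX-EPC values moved with the library left out: without OVX-EPC replicate 2 they were -0.13 against M-EPC and 0.19 against F-EPC, and without OVX-EPC replicate 1 they were -1.22 and -0.89.

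Esrra, on chr19:6910977-6921813 (- strand), was the one member with a region within 1 kb of its start. This region (chr19:6921822-6922221) was centred 208 bp upstream, had 25 CG and 6.5% of repeat-masked bases, and its level lay at the 98.6th percentile. It had 53 and 49 reads for M-EPC and 33 and 31 for OVX-EPC, so both M-EPC libraries were above both OVX-EPC libraries. The normalized values were 50.6 ± 8.96 and 31.4 ± 2.89 (SD, n = 2), a log2 change of -0.67. As a single region it had an SE of 0.266 and a limma adjusted p of 0.236. As a gene sum it had an adjusted p of 0.115 by limma, with a 95% interval of -1.19 to -0.14. The change of the sum was -0.51 with TMM factors, -0.56 with edgeR and -0.84 to -0.49 with a library left out. The median change of all genes was -0.13. F-EPC replicate 2 had 40 reads in this region, while replicate 1 ended before this position, and no test with F-EPC was made. Sex and ovariectomy therefore cannot be told apart in this change.

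Esrrb, on chr12:86361117-86521628 (+ strand), had 4 intronic regions and 1 distal region. The totals were 20 and 17 reads for M-EPC, 23 and 24 for F-EPC and 18 and 16 for OVX-EPC. After normalization all 3 groups overlapped (20.3 ± 5.30, 19.4 ± 2.48 and 17.7 ± 2.16). The limma changes were -0.04 ± 0.340 for F-EPC (adjusted p = 0.954) and -0.12 ± 0.360 for OVX-EPC (adjusted p = 0.875) against M-EPC. Their signs were not stable, since with TMM factors they were 0.08 and 0.03. The change between OVX-EPC and F-EPC was -0.12 ± 0.341 (limma, adjusted p = 0.974). The region with the most reads, in intron 2 (chr12:86483344-86483743), had 2 and 5, 8 and 10, and 4 and 4 reads for M-EPC, F-EPC and OVX-EPC.

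Esrrg, the longest of the members on chr1:187608791-188214885 (+ strand), had 2 intronic regions. Together they held 8 and 6 reads for M-EPC, 11 and 9 for F-EPC, and 11 and 19 for OVX-EPC. Both OVX-EPC libraries were above the other 4 after normalization, with means of 7.72 ± 2.67 for M-EPC, 8.18 ± 0.356 for F-EPC and 15.5 ± 5.26 for OVX-EPC (SD, n = 2). The change of OVX-EPC was 0.95 ± 0.517 from M-EPC (limma, adjusted p = 0.267, 95% interval -0.07 to 1.97) and 0.82 ± 0.460 from F-EPC (limma, adjusted p = 0.743, 95% interval -0.09 to 1.72). Esrrg reached the filter through the OVX-EPC libraries. The region with more reads (chr1:187937739-187938138, intron 3) had 4 and 4, 8 and 4, and 7 and 9 reads for M-EPC, F-EPC and OVX-EPC.

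**Figure D4:**
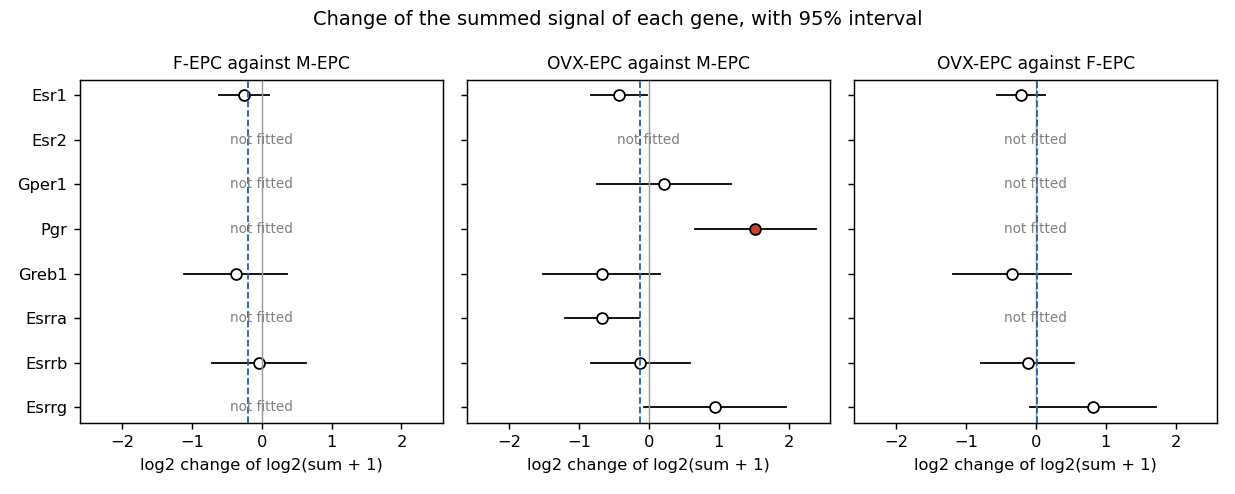
Change of the summed signal of each member gene, as the log2 difference of log2(sum + 1), with its 95% interval from limma, in the 3 comparisons. The filled point has an adjusted p under 0.05, dashed lines give the median change of all genes tested (-0.20, -0.13 and 0.02), and genes without enough reads are marked as not fitted. Pgr in OVX-EPC against M-EPC (1.52) is the one filled point.

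Across the gene sums of F-EPC against M-EPC, 3 members were tested and 0 were called by limma, compared with 11.6% of 5514 genes, and 0 had an unadjusted p under 0.05, compared with 28.1%. The groups did not overlap for Esr1 and Greb1, both lower in F-EPC, which also held for 37.8% of all genes. Across OVX-EPC against M-EPC, 7 were tested. Pgr alone was called, and Pgr, Esrra and Esr1, 3 members, had an unadjusted p under 0.05, compared with 21.9% of all genes. The change was above 0 for 3 and below 0 for 4, and over all genes these shares were 40.2% and 59.8%. The members' median was -0.12. Pgr and Esrrg were higher, and Esr1, Greb1 and Esrra lower, without overlap between the groups, as 20.5% and 30.6% of all genes were. Neither Pgr nor Esrrg would have passed the filter on M-EPC alone, nor Greb1 on OVX-EPC alone. Between OVX-EPC and F-EPC, 4 were tested, 0 were called by limma (0.0188% of 5307 genes were) and 0 had an unadjusted p under 0.05 (7.29% did). Without overlap, Esrrg was higher in OVX-EPC, as 19.6% of all genes were, and Esr1 lower, as 16.2% were. Here too Esrrg reached the filter through OVX-EPC alone. In edgeR and DESeq2, 0 members were called in both comparisons with F-EPC. The exact permutation test of 2 libraries against 2 cannot go below 0.3333, so it could call no gene.

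Other genes of the pathway were read from 4 lists. Of 41 other nuclear receptors, 11 were tested in F-EPC against M-EPC, with 0 higher and 2 lower by limma. Nr1i3, the xenobiotic receptor CAR, fell by 1.31 ± 0.369 (log2, limma, adjusted p = 0.0136), from 28.8 and 25.3 to 8.78 and 12.0 normalized reads. It would not have passed the filter on F-EPC alone. Nr2c1, an orphan receptor, had -1.37 ± 0.440 (limma, adjusted p = 0.0321), and reached the filter through the M-EPC libraries alone. These 2 of 11 stood beside 11.6% of all 5514 genes called. In OVX-EPC against M-EPC, 22 were tested, with 1 higher and 2 lower. Nr1i3 had -1.57 ± 0.416 (limma, adjusted p = 0.0128), from 24.7 and 22.6 to 7.09 and 7.57, and here reached the filter through M-EPC alone. Nr1d2, the circadian repressor REV-ERBβ, had -0.72 ± 0.228 (limma, adjusted p = 0.0419), and Hnf4g, a relative of HNF4α, had 1.03 ± 0.296 (limma, adjusted p = 0.0232). These 3 of 22 stood beside 5.36% of all 13347 genes called. Between OVX-EPC and F-EPC, 0 of 9 were called by limma and 0 had an unadjusted p under 0.05. The 2 smallest p-values in each direction were those of Nr1d1 (0.43) and Ppara (0.35), and of Nr4a1 (-0.34) and Nr1d2 (-0.28). With edgeR, Nr1i3 and Nr2c1 were called in the first comparison and Nr1i3 and Hnf4g in the second, while Nr1d2 was not.

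Of 30 estrogen targets, 10, 16 and 10 were tested in the 3 comparisons. Cited2, a transcriptional coregulator, was the 1 target called in F-EPC against M-EPC, with 390 and 348 normalized reads in M-EPC and 259 and 254 in F-EPC (-0.52 ± 0.126, limma adjusted p = 0.00424). Ccnd1, the cell cycle gene cyclin D1, was the 1 target called in OVX-EPC against M-EPC, with 127 and 117 normalized reads for M-EPC and 83.0 and 65.3 for OVX-EPC (-0.72 ± 0.207, limma adjusted p = 0.0223). Cited2 had a change of -0.47 ± 0.156 in that comparison (limma, adjusted p = 0.0540). Ccnd1 was not tested in the comparisons with F-EPC. The 1 of 10 and 1 of 16 stood beside 11.6% and 5.36% of all genes called. With edgeR, 0 targets were called in these 2 comparisons. Between OVX-EPC and F-EPC 0 were called by limma, and 1, Igfbp4, had an unadjusted p under 0.05 (1.10, limma adjusted p = 0.539), as 7.29% of all genes did. Next to it stood Xbp1 (0.74) upward and Stc2 (-0.36) and Egr3 (-0.17) downward. Igfbp4 and Xbp1 reached the filter through OVX-EPC alone.

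Of 25 coregulators of estrogen receptors, 8, 15 and 7 were tested and 0 were called by limma in any of the comparisons. Over all genes 11.6%, 5.36% and 0.0188% were called. The limma unadjusted p was under 0.05 for 1, 1 and 0 coregulators, beside 28.1%, 21.9% and 7.29% of all genes. With edgeR 0 coregulators were called. In F-EPC against M-EPC, Ddx17 had a log2 change of 0.03, the acetyltransferase gene Crebbp -1.06 ± 0.527 (limma, adjusted p = 0.175) and Ncoa2 -0.45. Crebbp reached the filter through M-EPC alone. In OVX-EPC against M-EPC, Ppargc1a, the PGC-1α coactivator of the estrogen-related receptors, had 1.07 and 6.33 normalized reads for M-EPC and 18.2 and 10.4 for OVX-EPC (1.93 ± 0.735, limma adjusted p = 0.0937). It reached the filter through OVX-EPC alone. Ncoa5 had -0.62 in the same comparison. Between OVX-EPC and F-EPC the smallest p-values were those of Ncoa4 (0.38) and Ncoa7 (0.31) upward and of Ddx17 (-0.44) and Ddx5 (-0.26) downward.

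Of 22 genes of estrogen synthesis and metabolism, 2, 5 and 2 were tested and 0 were called by limma. Their limma unadjusted p was under 0.05 for 1, 1 and 0, beside 28.1%, 21.9% and 7.29% of all genes. With edgeR 0 of them were called. In F-EPC against M-EPC, Srd5a1, a steroid reductase, had -0.49 ± 0.214 (limma, adjusted p = 0.123) and Hsd17b7 -0.13. In OVX-EPC against M-EPC, the dehydrogenase gene Hsd17b4 had -0.71 ± 0.352 (limma, adjusted p = 0.218), Srd5a1 -0.33 and Hsd17b12 0.11. Between OVX-EPC and F-EPC, Srd5a1 had 0.12 and Hsd17b7 -0.50. The median change over the tested genes in the 3 comparisons was -0.04, -0.10 and 0.05 for the nuclear receptors, -0.28, -0.23 and 0.09 for the targets, -0.37, -0.26 and -0.15 for the coregulators and -0.31, -0.40 and -0.19 for synthesis and metabolism, beside -0.20, -0.13 and 0.02 over all genes. DESeq2 called 0 genes of any of the 4 lists, and gave most of them no adjusted p in the comparisons with M-EPC.

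The genes whose level over the 6 libraries was most like that of Esr1 were Trps1, Gm15323 and Ifngr1. Their root mean square distances were 0.0790, 0.0827 and 0.0935 (log2 of sum + 1, centred). The search covered 956 genes above a minimum number of reads, which was set below that of Esr1. These genes were picked as the nearest, and the distance is a description.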

How the data were processed

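The deposited files were 3 tables, 1 for each pair of groups. Paired-end reads had been trimmed by the authors and aligned to mm10 (Bowtie2 in the methods, BWA in the submitters' processing notes). They dropped duplicates (Picard) and reads of low mapping quality, called peaks with MACS and annotated the regions. Each deposited signal value equalled whole reads over 1 size factor per library and table (100% whole within 0.001). Fold changes and p-values of the authors were not used. Discarding such reads lowers signal in repeats.

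The values were fitted with limma 3.58.1 (R 4.3.3, mean-variance trend) on log2(value + 1), for regions or gene sums with at least 10 in at least 2 of 4 libraries, and p-values were adjusted by Benjamini-Hochberg over the whole table. A fold change on this scale understates that of weak regions. Levels over 6 libraries used size factors from 23477 regions with reads in all. Alternatives used edgeR 4.0.16 and DESeq2 1.42.0 on the recovered reads. Starts were those of GENCODE M21, and sequences came from GRCm38. Single-region values rest on few reads. The sources do not say that the 2 libraries of a group were separate cultures, so p-values may measure technical spread. The rule for named regions took promoter regions, the region of each member with the most reads, and regions with an unadjusted p under 0.05. From the lists it took called genes or, with none called, the 2 smallest p-values in each direction, some of which are not reported here. The members and lists were chosen with earlier results of these data known. The region fit of OVX-EPC against M-EPC was run on simulated data, with changes placed in stronger regions only. That run does not speak to weak member regions or to gene sums.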

Additional observations from a re-analysis of the deposited data

Results flagged for a closer look

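The Esrra promoter region held 40 reads in F-EPC replicate 2, a library that entered no comparison of this gene because F-EPC replicate 1 ended before the position. On the scale common to the 6 libraries this was 35.3 normalized reads, beside 63.6 and 47.6 for M-EPC and 35.2 and 31.3 for OVX-EPC. The value has no replicate check.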

How the results depend on the processing

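The counts over all regions and genes moved with the processing, and the cause was not tested unless named. F-EPC against M-EPC gave 146 regions, which became 231 without a filter, 29 with TMM factors, 4 with DESeq2 and 0 to 181 with a library left out. OVX-EPC against M-EPC gave 76 regions, which became 40 with a pseudocount of 0.1, 145 without a filter, 41 with TMM factors, 139 with edgeR (66 higher and 73 lower, against 8 and 68), 8 with DESeq2 and 0 to 23 with a library left out. OVX-EPC against F-EPC gave 1 region, 0 with DESeq2 or the replicate block and 0 to 16 with a library left out. In gene sums the 639 of F-EPC against M-EPC (278 higher, 361 lower) became 228 with DESeq2 and 68 to 1029 with a library left out, and TMM factors gave 348 higher and 153 lower, edgeR 506 and 197. The 716 of OVX-EPC against M-EPC (415 higher, 301 lower) became 170 with DESeq2, 374 with the replicate block and 123 to 1009 with a library left out, with 542 higher and 68 lower under TMM factors. The 1 gene of OVX-EPC against F-EPC became 2 with a pseudocount of 0.1, 0 with DESeq2 and 0 to 10 with a library left out. Taking the absent F-EPC reads as 0 gave 5684 and 5076 regions and 4616 and 4203 genes, by its construction. TMM factors moved the median gene from -0.20 to -0.08 and from -0.13 to 0.02 in the comparisons with M-EPC. Of 135 alternative values for 14 changes of member genes, 122 kept their direction and side of the threshold, 3 (Pgr without a library, range 0.94 to 2.10) lost the call and 10 turned sign. DESeq2 gave 8 such changes no adjusted p, among them Pgr (1.61, unadjusted p = 0.0231). Pgr stayed called with the replicate block (limma, adjusted p = 0.0353), edgeR (0.0254) and TMM factors (0.0433). The turned signs were those of Esrrb (F-EPC against M-EPC 0.077 with TMM factors, 0.12 with edgeR and -0.30 to 0.21 with a library left out, OVX-EPC against M-EPC 0.025 with TMM factors and -0.35 to 0.11 with a library left out, OVX-EPC against F-EPC -0.24 to 0.0051), Gper1 (-0.027 to 0.46) and Greb1 (OVX-EPC against F-EPC -0.89 to 0.19), the last 3 ranges with a library left out. Replicate numbers were not shown to pair the libraries, with correlations of their deviations of -0.0707, -0.0207 and -0.0153, and the block changed no call of a member. With a library left out, the lone library is assumed to vary like the other group. Member regions of under 10 reads limit what could be tested.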
